A study of Mus musculus with 10 samples.

Results

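Integrins are receptors of the cell surface, each built from an alpha and a beta chain, that bind the extracellular matrix outside the cell and, through talin and kindlin, the actin skeleton inside it. In the glomerulus, the filtering unit of the kidney, alpha 3 beta 1 holds podocytes to the laminin of the basement membrane and alpha 8 beta 1 is a receptor of mesangial cells, while alpha 4 beta 1 is best known from leukocytes, where it binds Vcam1 and fibronectin. The values below are those of 10 integrin chains (Itga1, Itga3, Itga4, Itga5, Itga6, Itga8, Itgav, Itgb1, Itgb3 and Itgb5), taken as every probe set that the platform annotation assigns to exactly 1 of these genes. That gave 35 of 45037 probe sets, from 2 to 6 per gene. The genes were picked with results of these mice known, and Itga4 was picked because its probe sets moved in opposite directions between the genotypes, so the differences given for all 35 are a description and carry no test of their own.

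Glomeruli were isolated with magnetic beads perfused through the heart, and RNA of each mouse was hybridised to 1 Affymetrix mouse expression array. There were 5 male mice heterozygous for a knock-in of R394W in Wt1 (Wt1 +/R394W) and 5 wild-type male littermates (Wt1 +/+), all 27 days old, unweaned and from generation 4 of a backcross to FVB/N. The Wt1 protein is a zinc finger regulator of transcription in podocytes, and R394W is a recurrent change in Denys-Drash syndrome. Per the study's design text, these mutants had little albumin in the urine, and light microscopy showed no lesions of the mesangium. Breeding for the allele also keeps DNA linked to it on chromosome 2. Because of that, the R394W change and linked sequence cannot be told apart in these animals. Itga8, Itga6, Itga4 and Itgav all lie on chromosome 2 with Wt1, but at unequal distances. The protein-coding genes between each of them and Wt1 number 887 for Itga8, 411 for Itga6, 361 for Itga4 and 346 for Itgav.

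A difference is the mean of the Wt1 +/R394W mice minus the mean of the Wt1 +/+ mice on the log2 scale, and its standard error (SE) comes from the limma fit over all 45037 probe sets, and n = 5 mice in each group. A probe set is called where the adjusted p of that fit is under 0.05, which 384 probe sets, or 0.853% of all, reached (176 higher and 208 lower in the mutants, 0.391% and 0.462%). Array medians lay within 0.0817 log2 units of each other. Podocyte markers averaged 12.12 to 12.45 over the mutant arrays and 12.34 to 12.49 over the wild-type arrays. Endothelial markers averaged 11.47 to 11.72 over the mutant arrays and 11.62 to 11.81 over the wild-type arrays. Carried-over tubule varied more, with proximal tubule markers at 6.86 to 10.71 in mutants and 6.75 to 9.53 in wild types. Wt1 itself read 11.63 ± 0.16 in mutants and 11.30 ± 0.17 in wild types (SD, n = 5 each), a difference that was not called. A probe set's brightness depends on its probes, so levels of different probe sets are not ranked, and offsets between probe sets of Itga4 are used only to compare the genotypes.

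Itga4 had 5 probe sets, which did not share a direction. On 1436037_at the signal was 5.27-fold higher in mutant glomeruli, while 1421194_at and 1450155_at, both annotated with a RefSeq transcript of Itga4, were lower in the mutants by 1.50-fold and 1.36-fold. The remaining pair comprised 1456498_at, 2.10-fold higher in the mutants, and 1427615_at, which was dim in every mouse. Only 1436037_at was called. The 3 probe sets 1436037_at, 1456498_at and 1427615_at are annotated with sequence records that are not among the RefSeq transcripts of Itga4 in the table used here.

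The values by mouse show how far apart the genotypes were. On 1436037_at the mutants read 9.85, 10.08, 10.27, 10.25 and 9.68, and the wild types read 7.74, 7.34, 7.87, 7.67 and 7.52. All mutants lay above all wild types, and the gap between the lowest mutant and the highest wild type was several times the spread inside either genotype. The difference was 2.40 ± 0.13 (SE), from 10.03 ± 0.25 in mutants and 7.63 ± 0.21 in wild types (SD, n = 5 each). Its size ranked 12 among the 45037 probe sets, given as a description because Itga4 was chosen on these values.

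On 1421194_at the order of the genotypes was the other way round. The mutants read 8.45, 9.03, 9.07, 8.61 and 8.74, and the wild types 9.48, 9.11, 9.57, 9.20 and 9.45. Every mutant lay below every wild type, with mutant 3 and wild type 2 only just apart. The difference was -0.58 ± 0.13 (SE) and was not called. The second RefSeq-based probe set, 1450155_at, read 8.74, 9.32, 9.38, 9.10 and 9.41 in mutants and 9.78, 9.17, 9.94, 9.70 and 9.59 in wild types. Here wild type 2 lay inside the range of the mutants, and the difference was -0.45 ± 0.16 (SE), again not called.

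The probe set 1456498_at read 9.44, 8.63, 8.37, 8.92 and 7.67 in mutants and 7.80, 7.74, 7.68, 7.39 and 7.08 in wild types. Of the mutants, 4 lay above all wild types and mutant 5 lay among them. Its difference of 1.07 ± 0.28 (SE) was not called over all mice, but it was called without mutant 5, at 1.30 ± 0.21 (SE). It was also called with a tubule score in the model, at 0.94 ± 0.17 (SE). In the same order of mice, proximal tubule markers averaged 9.90, 9.20, 8.54, 10.71 and 6.86 in mutants. They averaged 9.42, 8.62, 8.83, 9.53 and 6.75 in wild types. Beyond the fit with the tubule score, their part in the values of 1456498_at was not tested. The dim probe set 1427615_at averaged 3.51 ± 0.21 in mutants and 3.63 ± 0.16 in wild types (SD, n = 5 each), at the 5.69th percentile of signal over all probe sets, and its difference was -0.13 ± 0.11 (SE).

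The probe sets were also compared within each mouse. The signal of 1436037_at minus that of 1450155_at was 1.11, 0.76, 0.89, 1.15 and 0.27 in mutants, and -2.04, -1.84, -2.07, -2.03 and -2.08 in wild types. The offset between these probe sets was nearly constant over the wild types (SD 0.10, n = 5) and shifted in all mutants, by 2.85 log2 units on average (mutant SD 0.36, n = 5). The signal of 1421194_at minus that of 1436037_at averaged -1.25 ± 0.28 in mutants and 1.73 ± 0.15 in wild types (SD, n = 5 each). These shifts restate the differences given above, on which Itga4 was chosen. The RefSeq-based probe sets kept to one another. The signal of 1421194_at minus that of 1450155_at averaged -0.41 ± 0.17 in mutants and -0.28 ± 0.17 in wild types (SD, n = 5 each), with overlapping ranges.

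**Figure D1:**
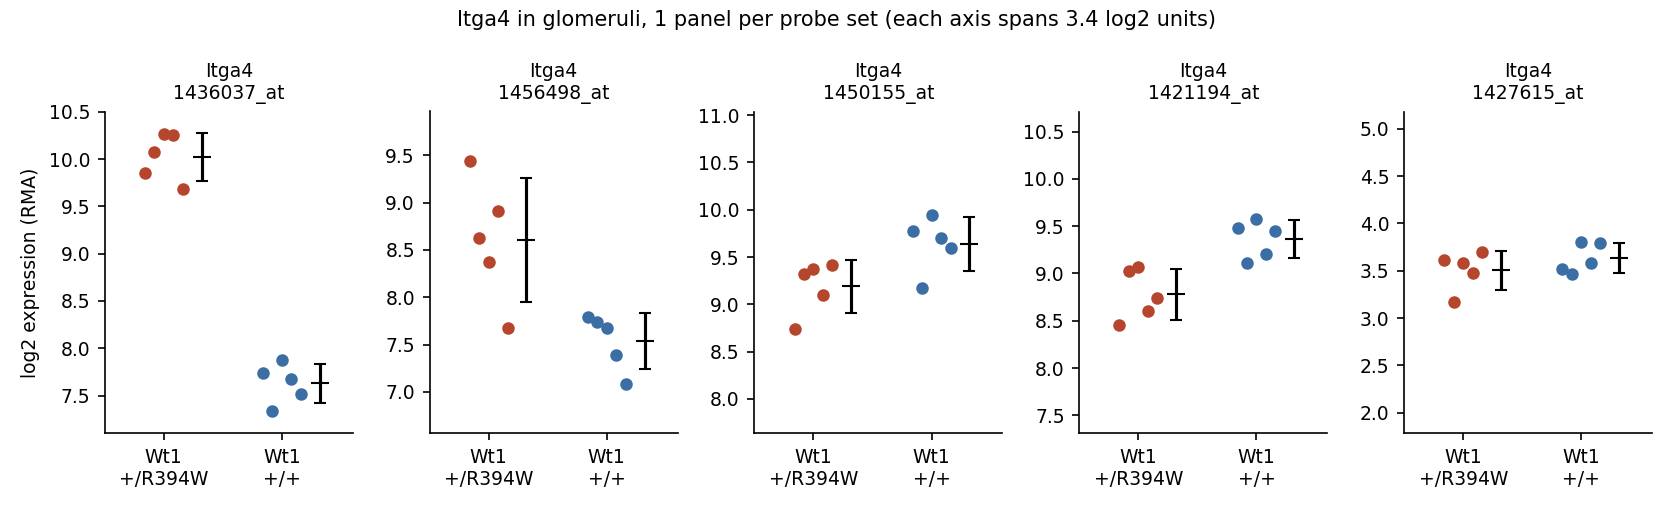
Log2 expression (RMA) of Itga4 in each mouse on its 5 probe sets, with Wt1 +/R394W at the left and Wt1 +/+ at the right of each panel. Points are mice and bars are the mean and SD of 5 mice. Mutants lie between 9.68 and 10.27 on 1436037_at, above all wild types, and between 8.45 and 9.07 on 1421194_at, below all wild types.

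A single value for Itga4 depended on how its probe sets were joined. Represented by 1450155_at, the one with the highest mean, Itga4 was lower in the mutants and not called. As the mean of all 5 probe sets it was higher by 0.46 ± 0.08 (SE) and was called in a fit over gene means. Neither of these values stands for the 4 brighter probe sets, which moved by -0.58 to 2.40.

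Genes that pair with alpha 4 or mark the cells that carry it were set beside these values. Leukocyte markers, the list that alpha 4 would be read with in most tissues, averaged 6.43 to 7.25 over mutant arrays and 6.55 to 7.61 over wild-type arrays, so the genotypes overlapped. Of its 19 measured genes, each read on 1 probe set, 1 (5.26%) was called, where 1.26% of 18193 genes were. It was the macrophage receptor gene Csf1r, whose probe set was lower in mutants by 0.99 ± 0.17 (SE, adjusted p = 0.0220). Whether any other probe sets of Csf1r also fell was not tested. Next by p-value was Cd53, a leukocyte tetraspanin gene, with a difference of 0.67 ± 0.17 in the other direction (SE, adjusted p = 0.129). The myeloid markers Cd68, Adgre1 and Lyz2 differed by 0.14 ± 0.26, 0.01 ± 0.08 and 0.14 ± 0.42 (SE), with adjusted p-values of 0.917, 0.983 and 0.951. Cd68 and Adgre1 were dim, at 5.52 and 5.08 over all mice, below the median signal of 6.36, where differences are compressed. Ptprc, which encodes the pan-leukocyte antigen CD45, changed by -0.13 ± 0.42 (SE, adjusted p = 0.954), and its lowest mutant and lowest wild type both read near the middle of the signal range of the arrays (6.70 and 6.69). Itgb7, the other beta chain that joins alpha 4, changed by -0.07 ± 0.07 (SE, adjusted p = 0.812). The ligands Vcam1 (0.02 ± 0.21 SE, adjusted p = 0.985) and Madcam1 (0.04 ± 0.07 SE, adjusted p = 0.913) were not called either. Madcam1 was dim, at 5.03 over all mice. The fibronectin gene Fn1 was higher in mutants by 0.79 ± 0.19 (SE, adjusted p = 0.100), which was not called. Its mutants read 7.80 to 9.04 and its wild types 7.38 to 7.68. In whole glomeruli, fewer cells of a type and less RNA per cell cannot be told apart.

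The probe sets most like each Itga4 probe set over the 10 arrays were sought among single-gene probe sets of other genes that varied enough (an SD over the arrays of at least that of the Itga4 probe set divided by 2). That left 532 candidates for 1436037_at, 2184 for 1456498_at, 9863 for 1421194_at, 11198 for 1450155_at and 29638 for 1427615_at, so the nearest ones come from sets of unequal size. Both genotypes entered the filter and the measure, so probe sets with a like genotype difference lie near by construction. For 1436037_at the nearest were probe sets of Cadm1, a cell adhesion molecule, and Rbfox1, a splicing regulator, with root mean square differences of 0.38 (1417378_at of Cadm1), 0.39 (Rbfox1) and 0.41 (1417377_at of Cadm1) between mean-centred log2 values. In that order they were higher in mutants by 2.29, 2.14 and 1.98 log2 units, so their nearness largely restates the difference on which Itga4 was chosen. For 1421194_at they were Alad, a heme synthesis enzyme, at 0.09 and both listed probe sets of Tmem164, at 0.12 each. For 1450155_at they were E2f1, Dkk3 and Clstn2 (0.12 to 0.16), and for 1456498_at Car8, Slc30a2 and Cp (0.22 to 0.34). The dim 1427615_at lay nearest to Slc39a14, Unc13a and Serpina3a, at 0.08 to 0.09.

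The promoter of Itga4 is shown because the altered protein of these mice is a transcription factor and Itga4 holds the called probe set. The sequence is the RefSeq entry of build GRCm38.p6, plus strand, chr2:79255176-79255475, and capitals mark the 50 bases from the annotated start onward.

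Itga4: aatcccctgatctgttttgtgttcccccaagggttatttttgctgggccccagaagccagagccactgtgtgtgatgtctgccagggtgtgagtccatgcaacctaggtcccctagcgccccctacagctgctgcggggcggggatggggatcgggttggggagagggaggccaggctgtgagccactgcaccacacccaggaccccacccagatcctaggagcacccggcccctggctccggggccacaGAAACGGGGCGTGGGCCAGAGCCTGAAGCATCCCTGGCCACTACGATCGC

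Its G and C content was 64.3%, against a median of 52.7% over 32851 promoters of the same length. The motif GCGGGGGCG, a binding sequence shared by Wt1 and Egr1, was searched on both strands and was not found in it, nor was GCGTGGGCG. Over all promoters, 2.91% held GCGGGGGCG and 0.612% held GCGTGGGCG. None of the 9 listed promoters of 8 of these integrin genes held either motif. With motifs this rare over all promoters, finding none in 9 is the usual outcome, so nothing is read from it. Only exact matches were counted.

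Outside Itga4, the 30 probe sets of the other 9 chains moved little. None was called in the limma fit, against 0.853% of all probe sets, and their differences ran from -0.37 to 0.26, at most 1.29-fold. At an unadjusted p under 0.05 there were 7 of these 30 (3 higher and 4 lower), where 9.36% of all probe sets passed. Nothing is read from that count, since these genes were chosen with the same contrast known. Over all 35 probe sets the median difference was -0.04, and over the whole array it was -0.0022. Genotypes did not overlap on 6 of the 35, and on 2.78% of all probe sets. Of these 6, Itga4, Itgb1 and Itgb5 had 2 each.

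**Figure D2:**
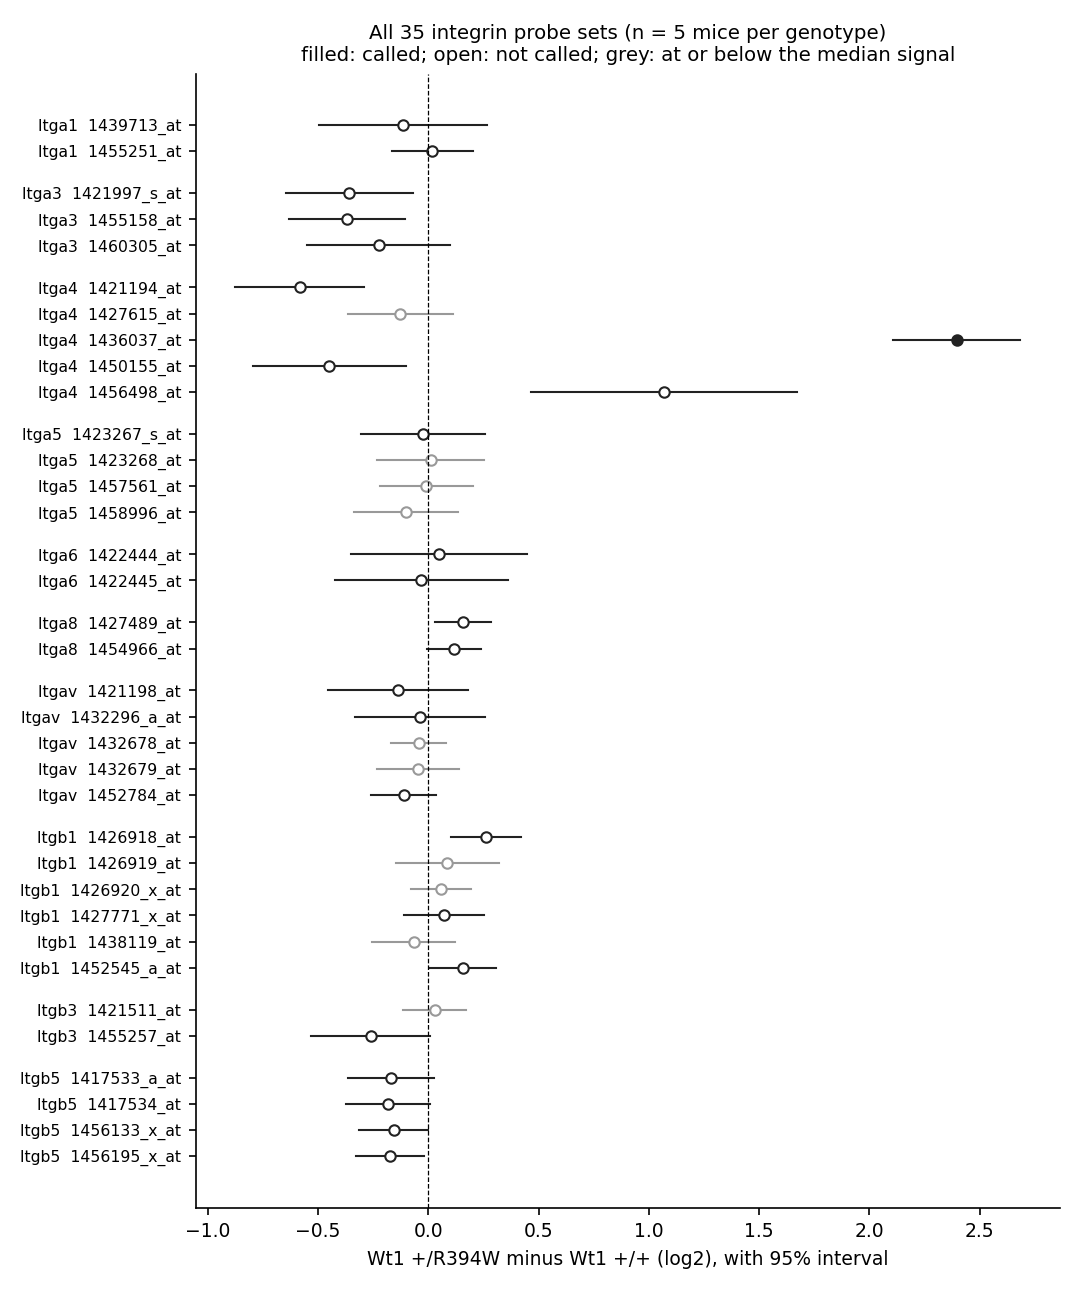
Difference Wt1 +/R394W minus Wt1 +/+ (log2) with its 95% interval for all 35 probe sets, grouped by gene, with n = 5 mice per genotype. The filled point, 1436037_at of Itga4, is the called one at 2.40, while all probe sets of the other 9 genes lie between -0.37 and 0.26, and grey marks the 10 probe sets at or below the median signal of 6.36.

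Among the laminin receptors, Itga3 was lower in the mutants on all 3 probe sets and Itga6 had no common direction. Itga3 encodes the alpha 3 chain, whose loss in mice prevents normal foot processes. On its brightest probe set, 1455158_at, mutants read 11.43, 11.17, 11.46, 11.17 and 11.55 and wild types 11.66, 12.08, 11.48, 11.60 and 11.82. Mutants 1 to 4 lay below all wild types, and mutant 5 lay above the lowest of them, wild type 3. The differences were -0.37 ± 0.12 on 1455158_at, -0.36 ± 0.13 on 1421997_s_at and -0.23 ± 0.15 (SE) on 1460305_at. Mutants 2 and 4 were the lowest on 1455158_at. Podocyte markers averaged 12.39 in mutant 2 and 12.12 in mutant 4, the lowest of all mice, and proximal tubule markers averaged 9.20 in mutant 2 and 10.71 in mutant 4, the highest of all mice. Their part in the Itga3 values was not tested beyond the tubule score. With the tubule score in the model the differences were -0.33, -0.31 and -0.18 on these 3 probe sets.

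Itga6 encodes the alpha 6 chain, which pairs with beta 1 or beta 4. Its probe sets 1422444_at and 1422445_at differed by 0.05 ± 0.18 and -0.03 ± 0.18 (SE). Mutants ran from 10.28 to 11.16 on 1422444_at and wild types from 10.29 to 10.83, so the mutants spanned the whole range of the wild types.

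The collagen receptor chain gene Itga1 also showed no shift beyond its spread. Mutants averaged 9.74 ± 0.15 and wild types 9.72 ± 0.10 (SD, n = 5 each) on 1455251_at, a difference of 0.02 ± 0.08 (SE). The difference on 1439713_at was -0.11 ± 0.17 (SE), and -0.24 to -0.02 with 1 mouse left out.

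Of the chains that recognise the RGD motif, Itga8 was slightly higher and Itgav slightly lower in mutants, and Itga5 lay near 0. Itga8 encodes the mesangial alpha 8 chain, whose ligand nephronectin (Npnt) is made by podocytes. On 1427489_at mutants read 13.17, 13.20, 13.20, 13.09 and 13.12 and wild types 13.10, 12.90, 12.92, 13.03 and 13.04. Only wild type 1 reached into the mutant range. The differences of 0.16 ± 0.06 on 1427489_at and 0.12 ± 0.06 (SE) on 1454966_at correspond to 1.12-fold and 1.08-fold. Mesangial and smooth muscle markers, measured on the same arrays, averaged 10.55 to 10.80 in mutants and 10.41 to 10.63 in wild types, and their part in the Itga8 values was not tested. Npnt changed by -0.08 ± 0.07 (SE, adjusted p = 0.813).

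Itgav encodes the alpha V chain, partner of beta 3, beta 5, beta 6 and beta 8. All 5 of its probe sets had negative differences, from -0.14 to -0.04. On the brightest, 1452784_at, mutants averaged 12.41 ± 0.11 and wild types 12.52 ± 0.08 (SD, n = 5 each), a difference of -0.11 ± 0.07 (SE). Mutant 5 stood above the other mutants on 1421198_at, at 10.05 against 9.17 to 9.38. The difference on 1421198_at, -0.14 over all mice, was -0.29 without mutant 5 and -0.07 without mutant 1. On 1432296_a_at the sign turned without mutant 1, mutant 3 or wild type 4, with differences of 0.0152, 0.00773 and 0.0149. Itga5, the alpha chain of the classical fibronectin receptor, had 4 probe sets with differences from -0.10 to 0.01, and only 1423267_s_at was brighter than the median probe set. There mutants averaged 8.16 ± 0.19 and wild types 8.18 ± 0.25 (SD, n = 5 each).

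The beta chains divided by gene. Itgb1, the common partner of alpha 1, alpha 3, alpha 4, alpha 5, alpha 6 and alpha 8, was higher in mutants on both of its brightest probe sets. On 1426918_at mutants read 12.75, 12.63, 12.79, 12.66 and 13.00, and wild types read 12.49, 12.51, 12.52, 12.47 and 12.54. Every mutant was above every wild type, and mutant 5 was the highest. The difference was 0.26 ± 0.07 (SE), a 1.20-fold one. On 1452545_a_at the genotypes were only just apart, with mutants at 12.70 to 13.02 and wild types at 12.60 to 12.69, and the difference was 0.16 ± 0.07 (SE), or 0.10 without mutant 5. The 4 other probe sets of Itgb1 differed by -0.07 to 0.09, and 3 of them lay below the median signal.

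Itgb5, the vitronectin receptor chain that pairs with alpha V, was lower in mutants on all 4 probe sets, by 0.16 to 0.18 log2 units. On 1456195_x_at mutants read 12.31, 12.30, 12.24, 11.99 and 12.29, and wild types 12.37, 12.47, 12.39, 12.42 and 12.36. The genotypes did not overlap on this probe set or on 1456133_x_at, but the highest mutant and the lowest wild type were nearly level and mutant 4 stood below the rest. Without mutant 4 the 4 differences were -0.10 (1417533_a_at), -0.11 (1417534_at), -0.10 (1456133_x_at) and -0.12 (1456195_x_at). The x_at probe sets can match other transcripts. Itgb3, which joins alpha V or the platelet alpha IIb chain, differed by -0.26 ± 0.12 (SE) on 1455257_at (-0.16 without wild type 2) and by 0.03 ± 0.07 (SE) on 1421511_at, both near the median signal of the array.

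**Figure D3:**
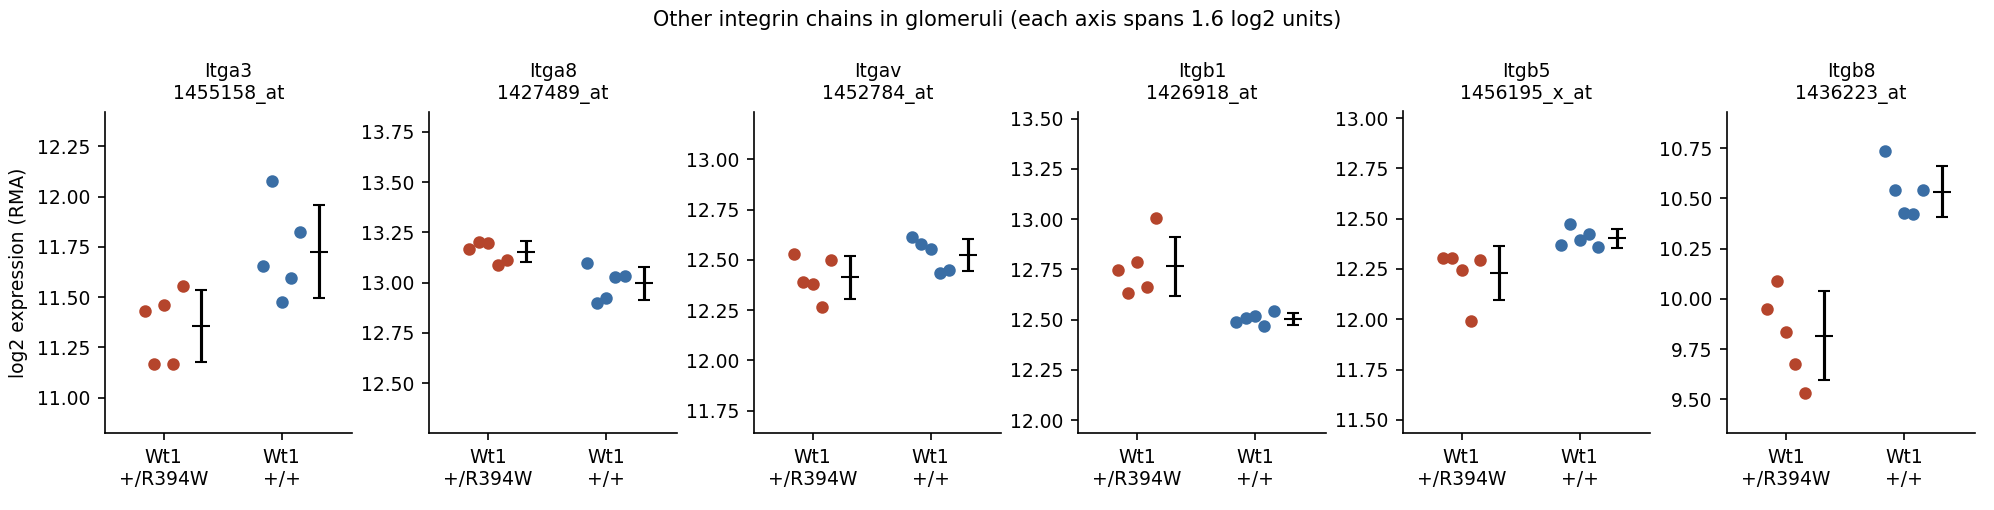
Log2 expression (RMA) by mouse for Itga3, Itga8, Itgav, Itgb1, Itgb5 and Itgb8, each on its probe set with the smallest p-value in the fit (a choice made on these same values), with Wt1 +/R394W at the left and Wt1 +/+ at the right. Points are mice and bars are the mean and SD of 5 mice. Mutants lie at 12.63 to 13.00 for Itgb1, above all wild types, and at 9.53 to 10.09 for Itgb8, below all wild types.

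The remaining integrin chains were read with 1 probe set per gene, the one with the highest mean. Of 14 measured genes, 1 fell and none rose, where 1.26% of all genes were called (0.566% higher and 0.698% lower in mutants). It was Itgb8, which pairs with alpha V to bind and activate latent TGF-beta. Mutants read 9.95, 10.09, 9.84, 9.67 and 9.53 and wild types 10.73, 10.54, 10.43, 10.42 and 10.54 on its only probe set, 1436223_at. Every mutant lay below every wild type. Itgb8 fell by 0.72 ± 0.11 (SE) on the log2 scale, a 1.64-fold difference (adjusted p = 0.00894). The call held without any 1 of the 10 mice (adjusted p up to 0.0278). It was lost with only the 7 mice of neighbouring animal numbers (adjusted p = 0.110). Itga2, a collagen receptor chain gene, was next in the list at 0.30 ± 0.16 (SE, adjusted p = 0.607). The leukocyte chain genes Itgal, Itgam and Itgb2, which also belong to the leukocyte list, changed by -0.07 ± 0.25, 0.06 ± 0.10 and -0.17 ± 0.30 (SE), with adjusted p-values of 0.956, 0.909 and 0.911. Of these, Itgam was dim, at 4.08 over all mice.

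Ligands of integrins moved in both directions. Of 27 measured genes, 2 rose (Tnc and Lama1) and 2 fell (Col1a2 and Postn), which is 14.8% of them against 1.26% of all genes, and the median change was 0.04 against 0.00 over all genes. The list was drawn up with the falls and rises of these matrix genes already known, so its count is no independent evidence. Tenascin C, a ligand of alpha V and alpha 8 integrins, rose by 1.20 ± 0.11 (SE, adjusted p = 0.000395), and Col1a2, a chain of type I collagen bound by alpha 1 and alpha 2, fell by 1.55 ± 0.11 (SE, adjusted p = 5.98e-05). Ligands were read on 1 probe set each, the one with the highest mean. The other Tnc probe set, 1456344_at, differed by 0.69 ± 0.31 (SE, adjusted p = 0.535). For Col1a2, 1423110_at fell by 1.41 ± 0.16 (SE, adjusted p = 0.00135). The dim 1446326_at of Col1a2 differed by -0.19 ± 0.09 (SE, adjusted p = 0.581). The calls of the laminin chain gene Lama1 (0.96 ± 0.18 SE, adjusted p = 0.0362) and of the periostin gene Postn (-0.95 ± 0.19 SE, adjusted p = 0.0469) were lost without most single mice. Lama1 kept its call in 2 of 10 such fits (without mutant 3 or wild type 2) and Postn in 1 (without wild type 2), with adjusted p up to 0.106 and 0.117.

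None of 36 measured genes that link integrins to the cytoskeleton was called in the limma fit, a list that holds talins, kindlins, Ilk with its partners, vinculin and paxillin. At an unadjusted p under 0.05 there were 6, all lower in mutants, where 11.0% of all genes passed. The list was chosen with earlier results of these data known, so nothing is read from that count or its direction. The smallest p-values belonged to Fyn, a Src family kinase, at -0.42 ± 0.09 (SE, adjusted p = 0.0833), and Kank1, which binds talin, at -0.52 ± 0.13 (SE, adjusted p = 0.132). Their other probe sets differed by -0.28 ± 0.12 (1448765_at of Fyn, adjusted p = 0.510) and -0.16 ± 0.07 (SE, 1444711_at of Kank1, adjusted p = 0.525). With gene means in place of single probe sets, Kank1 alone was called in the list. The median change of the list was -0.02.

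The neighbours of Itga4 on chromosome 2 were read against the whole array, where 0.853% of probe sets were called. In the order of protein-coding genes, 361 lie between Itga4 and Wt1. Among the 10 genes on each side of Itga4, 17 had single-gene probe sets, 41 in all. Of these 41, 2 (4.88%) were called, both of the same gene, Frzb, a secreted Wnt antagonist 8 genes away. Its differences were 2.31 ± 0.34 (1416658_at, adjusted p = 0.00855) and 2.13 ± 0.30 (SE, 1448424_at, adjusted p = 0.00596). From Itga6 to Wt1, 8 of 363 probe sets (2.20%) were called, from Itga4, Frzb, Fam171b, Tspan18 and Cd59a, with 4 higher and 4 lower in the mutants. Without the probe sets of Itga4, a gene chosen on these values, it was 7 of 358 (1.96%). Fam171b, 16 genes from Itga4 and next to Itgav in that order, fell on both of its called probe sets, by 0.71 ± 0.09 (1436350_at, adjusted p = 0.00453) and 0.88 ± 0.15 (SE, 1454965_at, adjusted p = 0.0205). Itgav itself, between them, had no called probe set. This stretch was looked at after the values had been seen, and whether sequence differences under the probes play a part was not tested, since probe sequences were not used here.

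**Figure D4:**
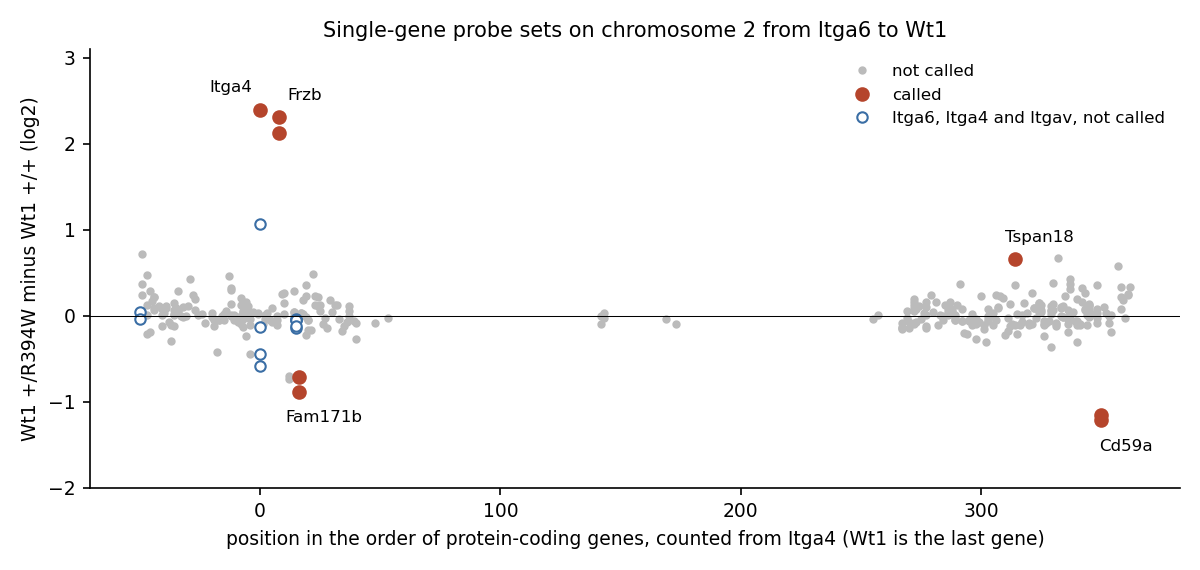
Difference Wt1 +/R394W minus Wt1 +/+ (log2) of 363 single-gene probe sets against position in the order of protein-coding genes on chromosome 2, counted from Itga4, with Wt1 at the right end. Red points are the 8 called probe sets and open blue circles the uncalled ones of Itga6, Itga4 and Itgav. Itga4 at 2.40 and Frzb at 2.31 and 2.13 stand above their neighbours.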

How the data were processed

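Per the labels, total RNA of isolated glomeruli was labelled with biotin, with 1 array per mouse. The authors deposited log2 values, and RMA is the one tool named in the submitters' processing notes. As a method RMA corrects background, normalizes quantiles and summarises probe sets. Its version is not given in the sources read here, and scanner files were not used. Differences of dim probe sets are compressed by RMA, and precision is limited by the number of arrays.

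All 10 columns were matched to mice by their labels. The table held 45101 probe sets, and its 64 Affymetrix controls were not tested. The platform annotation gave 1 gene for 34945 of the rest, several for 932 and none listed for 9160. RefSeq (assembly GRCm38.p6) served for names, gene order and promoters, and no array annotation names a build. The genotype comparison used limma 3.58.1 in R 4.3.3, without covariates, and two-sided p-values were adjusted by Benjamini-Hochberg over 45037 probe sets. The step was tested on simulated data. Every adjusted p comes from this fit unless another setting is named.

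The members and gene lists were chosen with earlier results of these data known. Named genes are all probe sets of the 10 chains, the called genes (otherwise the 2 with the smallest p) of 3 lists (other chains, ligands, adhesion partners), and the 3 probe sets nearest to each Itga4 probe set. Itga2, Csf1r, Cd53, Cd68, Adgre1, Lyz2, Ptprc, Itgb7, Itgal, Itgam, Itgb2, Vcam1, Madcam1, Fn1, Npnt and the chromosome 2 genes were chosen after seeing the values. Marker lists were averaged per array. Alternatives changed scaling, filters, variance model, weights, probe sets and mice used, and a tubule score per array (averaged over both tubule lists). Litters are not given, and replicate numbers only name mice. Python (version 3.11.15) and matplotlib (version 3.10.9) drew the figures.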

Additional observations from a re-analysis of the deposited data

Results flagged for a closer look

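In 70 groups of 5 mice (35 probe sets in 2 genotypes), 6 held a mouse far from the other 4 by Dixon's criterion, which chance meets in about 1 in 20 groups. Mutant 4 was low on 3 of the 4 Itgb5 probe sets, at 12.64 on 1417533_a_at (next lowest mutant 12.96), 12.23 on 1456133_x_at (12.49) and 11.99 on 1456195_x_at (12.24). The same mouse had the highest proximal tubule markers (10.71) and the lowest podocyte markers (12.12) of all mice. Mutant 5 was high on 2 Itgav probe sets, at 10.05 on 1421198_at (next 9.38) and 7.26 on 1432296_a_at (6.76), and had the lowest proximal tubule markers of the mutants (6.86). Wild type 5 was lower still on those markers (6.75) and read 9.41 and 6.72 on these Itgav probe sets. Whether the marker levels of mutants 4 and 5 bear on their outlying values was not tested. Wild type 3 was low on 1421511_at of Itgb3, at 5.78 (next 5.97).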

How the results depend on the processing

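The call of 1436037_at of Itga4 held in all 19 alternatives, with differences of 2.32 to 2.48, and 1421194_at stayed negative in all 19 (-0.66 to -0.50) without being called. The count of called integrin probe sets was 1 to 2 when 1 mouse was left out (2 without mutant 5), 2 with the tubule score and 2 with only the mice of neighbouring animal numbers and their runs as a block, where the addition each time was 1456498_at. Those mice alone called 110 probe sets of the whole array (58 higher, 52 lower), or 126 with the block (70 higher, 56 lower), with fewer mice in the fit. Leaving out 1 mouse gave 216 to 301 (78 to 140 higher, 137 to 172 lower). Called ligands were 2 to 4 (1 to 2 higher, 1 to 2 lower) with 1 mouse left out, and 2 without mutant 1, 4 or 5 or wild type 1, 3, 4 or 5. With only probe sets above the median signal 1 ligand was called higher, since Lama1 is dimmer than that. With gene means 1 adhesion partner was called, lower in mutants. The runs of animal numbers were the only block fitted. Pairing by replicate was not possible, because the labels give no litters and the replicate numbers used here follow accession order.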
